A study of Mus musculus with 24 samples.

Results

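Adipogenic factors were followed in myogenic cells through 9 genes, Pparg, Cebpa, Cebpb, Cebpd, Fabp4, Lpl, Cd36, Adipoq and Prdm16, of the 28109 genes in the deposited table. They were taken by gene name, with earlier results of these data known. RNA-seq was performed on C2C12 cells, an established mouse myoblast line labelled as C3H, and on primary myoblasts (PMs) labelled C57/B6, which the study isolated from mice 3 to 4 weeks old. Both were transfected with siControl, whose target is luciferase in the labels, or with siTead1/4, pools of siRNAs against Tead1 and Tead4 together. Undifferentiated cells (day 0) were collected 24 hours after transfection, and differentiating cells after 3 and 6 days in medium with 2% horse serum. Each of the 12 groups had 2 biological replicates, which gave 24 libraries with 25453830 to 52784510 reads counted on genes. PMs were grown on matrigel and C2C12 cells in another medium, so cell type, mouse strain and culture conditions cannot be told apart.

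In adipocytes, Cebpb and Cebpd encode C/EBP factors that act early in differentiation, and Pparg and Cebpa encode the nuclear receptor and the C/EBP factor that then maintain each other and switch on fat cell genes. Such genes include Fabp4 (a fatty acid carrier), Lpl (the lipase that frees fatty acids from circulating triglycerides), Cd36 (a fatty acid transporter of the cell surface) and Adipoq (the hormone adiponectin). Lpl and Cd36 also supply fatty acids to muscle, and Prdm16 encodes a regulator of brown fat identity that is known for its part in the choice between brown fat and muscle.

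Promoter sequences of 6 of the members were found in RefSeq, from 250 bases before to 50 bases after a start (GRCm38.p6, the strand of the gene). They were searched on both strands for CATTCC (the core of the MCAT element bound by Tead factors), CAGCTG (an E-box of the kind bound by Myod1), TTNNGNAA (a C/EBP type motif) and AGGTCA (a binding element of nuclear receptors). The promoters of Cd36, Prdm16 and Pparg are shown because Cd36 was the member called after silencing, Prdm16 held the only CATTCC match, and Pparg fell in both cell types. Capitals mark matches to any of the 4 motifs.
Cd36, minus strand, chr5:17835847-17836146: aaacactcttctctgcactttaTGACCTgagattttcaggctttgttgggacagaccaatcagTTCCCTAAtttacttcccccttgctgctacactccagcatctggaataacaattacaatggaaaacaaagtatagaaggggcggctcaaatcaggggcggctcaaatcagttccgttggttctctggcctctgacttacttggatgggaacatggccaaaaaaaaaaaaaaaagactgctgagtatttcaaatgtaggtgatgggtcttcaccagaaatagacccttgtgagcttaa
Prdm16, minus strand, chr4:154636824-154637123: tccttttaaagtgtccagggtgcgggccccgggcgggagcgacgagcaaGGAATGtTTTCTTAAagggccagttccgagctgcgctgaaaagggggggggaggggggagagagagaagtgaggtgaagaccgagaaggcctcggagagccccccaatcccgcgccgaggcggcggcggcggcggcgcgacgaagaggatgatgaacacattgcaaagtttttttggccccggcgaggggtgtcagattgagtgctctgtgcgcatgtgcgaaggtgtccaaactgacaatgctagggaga
Pparg, the start furthest downstream of 3, plus strand, chr6:115421816-115422115: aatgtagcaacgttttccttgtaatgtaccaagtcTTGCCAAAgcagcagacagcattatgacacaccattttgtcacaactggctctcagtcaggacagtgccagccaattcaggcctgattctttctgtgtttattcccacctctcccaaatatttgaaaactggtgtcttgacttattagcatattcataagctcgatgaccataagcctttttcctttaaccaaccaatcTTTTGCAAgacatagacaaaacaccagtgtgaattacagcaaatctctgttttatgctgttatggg
In Prdm16 the CATTCC match began at position -201 and a C/EBP type match at -194. In Cd36 an AGGTCA match began at -228 and a C/EBP type match at -187. At the Pparg start shown, C/EBP type matches began at -215 and -16. The other Pparg starts held no C/EBP type match and each held an AGGTCA match, at -28 and at -9. Among 32851 promoters of the same length, 14.7% held CATTCC, 16.3% CAGCTG, 40.7% TTNNGNAA and 16.3% AGGTCA. A match is a description of letters and not of binding.

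In siTead1/4 libraries Tead4 was at 20.3% to 48.4% of the siControl mean in C2C12 cells and at 15.7% to 35.3% in PMs. Tead1 was at 4.90% to 72.5% and at 27.5% to 62.1%. Tead4 was called lower at days 0 and 3 in C2C12 cells and at each day in PMs, and Tead1 at days 0 and 3 in PMs. Not called were the day 6 changes of Tead4 in C2C12 cells (-1.28 on the log2 scale, edgeR adjusted p = 0.32) and of Tead1 in PMs (-1.10, edgeR adjusted p = 0.14), nor was Tead1 in C2C12 cells at any day (edgeR adjusted p = 0.17, 0.50 and 0.95). The 8 myogenic markers summed to between 574 and 32449 CPM (read counts relative to a library size scaled by TMM). Of 8 adipocyte markers, Adipoq, Plin1, Cidec, Cfd and Retn had at most 3 reads in every library, and Lep had 10 at most. The other two were detected and rose in siControl PMs, and both are also known in muscle. Slc2a4, the insulin-responsive glucose transporter, went from 4.85 and 4.96 CPM at day 0 to 102 and 127 CPM at day 3 and 94.5 and 106 CPM at day 6. Lipe, the hormone-sensitive lipase, went from 1.23 and 1.01 CPM to 7.10 and 4.95 CPM and then 5.27 and 6.16 CPM. Their log2 fold changes at day 3 were 4.49 (SE 0.19, edgeR adjusted p = 7.6e-08) and 2.36 (SE 0.32, edgeR adjusted p = 9.9e-05). In siControl C2C12 cells Slc2a4 rose by 2.57 (SE 0.54, edgeR adjusted p = 0.0042) at day 3, and Lipe was not called. Markers of fibro-adipogenic progenitors were detected in both cell types, with sums of 66.9 to 454 CPM in C2C12 libraries and 39.3 to 246 CPM in PM libraries, and their part in the results was not tested. Since cultures were sequenced in bulk, fewer expressing cells and less RNA per cell cannot be told apart.

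**Figure D1:**
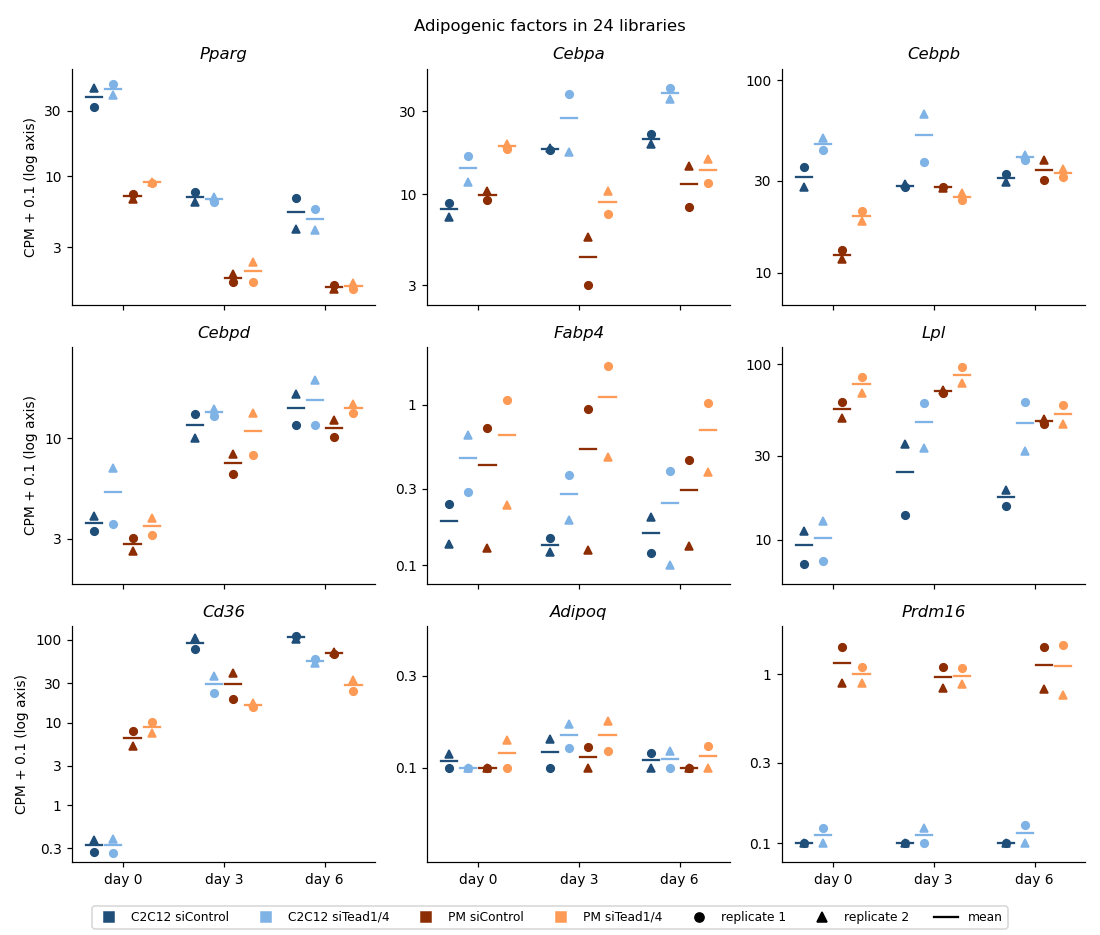
Level of each of the 9 genes in the 24 libraries, as CPM plus 0.1 on a log axis whose range differs between panels, by day. Circles and triangles are replicates 1 and 2, short lines are group means, and colours are cell type and siRNA. Pparg falls from day 0 in both cell types, Cd36 rises in both, Adipoq stays at the bottom and Prdm16 is above it in PMs.

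A gene was called at an edgeR adjusted p under 0.05 (Benjamini-Hochberg) and a log2 fold change beyond 1 in either direction. In siControl C2C12 cells, 4 of the 7 members tested were called at day 3 against day 0 and 4 at day 6, where 28.7% and 31.1% of all genes tested were called. In siControl PMs, 5 of 8 were called at day 3 and 4 at day 6, against 32.3% and 35.5% of all genes. The share of members called was above that of all genes, but it rests on 7 or 8 genes.

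Pparg (ENSMUSG00000000440, chr6:115311239-115440419 of mm9), the master regulator of adipogenesis, fell during differentiation in both cell types. The siControl C2C12 replicates were at 31.7 and 43.6 CPM at day 0, 7.50 and 6.31 CPM at day 3 and 6.78 and 3.98 CPM at day 6. No library of days 3 or 6 reached the level of day 0. The fall was -2.49 on the log2 scale at day 3 (SE 0.30, edgeR adjusted p = 1.7e-04) and -2.84 at day 6 (SE 0.31, edgeR adjusted p = 7.3e-05). In siControl PMs the replicates went from 7.29 and 6.70 CPM at day 0 to 1.57 and 1.82 CPM at day 3 and 1.49 and 1.40 CPM at day 6. On the log2 scale this was -2.10 (SE 0.22, edgeR adjusted p = 1.5e-05) and -2.34 (SE 0.22, edgeR adjusted p = 7.2e-06). The difference of the fall between cell types was 0.40 (SE 0.36) at day 3 and 0.52 (SE 0.37) at day 6 on the log2 scale and was not called.

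Cebpd (ENSMUSG00000071637, chr16:15887379-15888559, listed as a pseudogene in the table) moved the other way and rose in both cell types. C2C12 cells with siControl had 3.18 and 3.86 CPM at day 0, 13.2 and 9.94 CPM at day 3 and 11.7 and 17.0 CPM at day 6, with log2 fold changes of 1.68 (SE 0.38) and 1.98 (SE 0.38; edgeR adjusted p = 0.0057 and 0.0022). Its levels in siControl PMs were 2.95 and 2.51 CPM, then 6.45 and 8.21 CPM, then 10.0 and 12.3 CPM. The rise there was 1.37 (SE 0.26) and 1.96 on the log2 scale (SE 0.26; edgeR adjusted p = 9.9e-04 and 7.9e-05). With replicate 2 alone of the PMs the day 3 value was 1.69 and was not called (edgeR adjusted p = 0.054).

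Cebpb (ENSMUSG00000056501, chr2:167514415-167515918), an early C/EBP factor, rose in PMs. Its siControl PM libraries were at 13.1 and 11.6 CPM at day 0, 27.8 and 27.6 CPM at day 3 and 30.1 and 38.3 CPM at day 6. These are log2 fold changes of 1.11 (SE 0.14, edgeR adjusted p = 6.4e-05) and 1.40 (SE 0.14, edgeR adjusted p = 1.1e-05). In siControl C2C12 cells the 6 libraries lay between 27.8 and 35.3 CPM, with log2 fold changes of -0.19 (SE 0.25) and -0.06 (SE 0.25) that were not called. The difference of the differentiation effect between cell types was itself called, at 1.32 (SE 0.30, edgeR adjusted p = 0.0060) on day 3 and 1.49 (SE 0.30, edgeR adjusted p = 0.0022) on day 6. In this test 11.2% and 12.7% of all genes were called, and 3 of 8 members at day 3 and 2 at day 6. The 8 include Prdm16, which had at most 3 reads in every C2C12 library, so no difference can be read for it. Cebpb shares 312 exon bases with Tmem189 on the opposite strand, and the libraries did not keep the strand, so reads there cannot be assigned to either gene.

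Cebpa (ENSMUSG00000034957, chr7:35904312-35906945), the partner of Pparg in fat cells, differed in direction. It rose in siControl C2C12 cells, from 8.87 and 7.34 CPM at day 0 to 18.0 and 18.5 CPM at day 3 and 22.2 and 19.3 CPM at day 6, and none of these groups overlapped with day 0. This corresponds to log2 fold changes of 1.13 (SE 0.33, edgeR adjusted p = 0.021) and 1.32 (SE 0.33, edgeR adjusted p = 0.0094). In siControl PMs it fell at day 3, from 9.24 and 10.3 CPM to 2.92 and 5.61 CPM, and was at 8.41 and 14.4 CPM at day 6. These changes were -1.25 (SE 0.33, edgeR adjusted p = 0.0075) and 0.16 (SE 0.32, not called) on the log2 scale. The difference between cell types at day 3 was -2.36 (SE 0.50, edgeR adjusted p = 0.0036). The call in C2C12 cells at day 3 was lost without any 1 of its 4 libraries (the log2 fold change then reached at most 1.28), and that at day 6 without day 0 replicate 2 (1.20) or day 6 replicate 1 (1.21). The PM call at day 3 was lost without day 3 replicate 1 (-0.85) and with replicate 2 alone (-0.89).

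Cd36 (ENSMUSG00000002944, chr5:17287508-17394777) showed the steepest change of the members. C2C12 cells with siControl had 6 and 16 reads at day 0, which is 0.169 and 0.284 CPM. It then reached 77.8 and 106 CPM at day 3 and 113 and 103 CPM at day 6, with log2 fold changes of 8.56 (SE 0.39, edgeR adjusted p = 1.2e-06) and 8.79 (SE 0.39, edgeR adjusted p = 1.1e-06). PMs with siControl had 7.76 and 5.07 CPM at day 0, 19.4 and 39.5 CPM at day 3 and 66.9 and 71.6 CPM at day 6. The log2 fold changes of 2.14 (SE 0.32, edgeR adjusted p = 2.3e-04) and 3.36 (SE 0.34, edgeR adjusted p = 1.1e-05) were smaller than in C2C12 cells. The difference of the effects was -6.39 (SE 0.54, edgeR adjusted p = 6.6e-07) at day 3 and -5.39 (SE 0.53, edgeR adjusted p = 2.6e-06) at day 6.

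Lpl (ENSMUSG00000015568, chr8:71404390-71431347) passed the edgeR test in neither cell type. C2C12 libraries with siControl had 7.20 and 11.2 CPM at day 0, 13.6 and 34.9 CPM at day 3 and 15.4 and 19.2 CPM at day 6. The replicates of day 3 differed widely. Against day 0 this gave 1.36 (SE 0.50, edgeR adjusted p = 0.053) and 0.87 (SE 0.50, edgeR adjusted p = 0.18) on the log2 scale. The first was 0.52 without day 3 replicate 2 and 1.89, and called, without day 3 replicate 1. It was also called by DESeq2 (1.40) and by edgeR with RLE size factors (1.40), without the filter on low counts (1.37) or with all 24 libraries in one fit (1.40). The siControl PM libraries lay between 45.7 and 71.4 CPM, with log2 fold changes of 0.28 (SE 0.16) and -0.30 (SE 0.16).

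**Figure D2:**
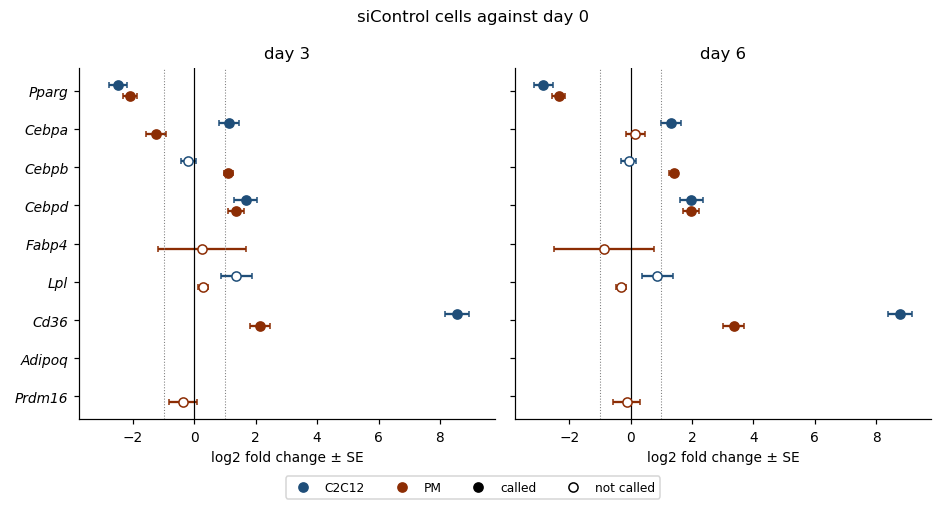
Log2 fold change with its SE of each member between day 0 and days 3 or 6 in siControl cells, in C2C12 cells (blue) and PMs (brown). Filled points were called, dotted lines mark 1 and -1, and members with a group of at most 3 reads per library are left out. Pparg lies left of 0 and Cebpd and Cd36 lie right of 0 in both cell types, while Cebpa at day 3 lies on opposite sides.

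Levels also differed between the cell types at the same day. In siControl PMs against siControl C2C12 cells 5 of 8 members were called at day 0, 5 at day 3 and 3 at day 6, where 26.8%, 29.8% and 24.9% of all genes were called. These counts include Prdm16 at each day, which had 0 reads in every siControl C2C12 library. It passed the filter on low counts only through its PM libraries, so its call adds nothing to a comparison with the share of all genes. Pparg was lower in PMs at each day, with log2 differences of -2.43 (SE 0.26), -2.02 (SE 0.27) and -1.90 (SE 0.27; edgeR adjusted p = 9.7e-07, 1.4e-05 and 4.5e-05). Lpl was higher in PMs at each day, with log2 differences of 2.58 (SE 0.42), 1.52 (SE 0.40) and 1.45 (SE 0.40; edgeR adjusted p = 9.7e-05, 0.0049 and 0.0091). Without C2C12 replicate 1 of day 3 or of day 6 the Lpl call at that day was lost (0.98 and 1.27).
Cebpb was lower in PMs at day 0 (log2 difference -1.35, SE 0.21, edgeR adjusted p = 8.0e-05) and at -0.03 and 0.14 at days 3 and 6. Cebpa was lower in PMs at day 3 (-2.09, SE 0.36, edgeR adjusted p = 1.8e-04) and at -0.87 at day 6, which was -0.55 without PM replicate 1 and -1.32, and called, without PM replicate 2. Cd36 was higher in PMs at day 0 (4.75, SE 0.43, edgeR adjusted p = 1.8e-07), lower at day 3 (-1.64, SE 0.31, edgeR adjusted p = 3.9e-04) and at -0.64 (edgeR adjusted p = 0.10) at day 6. Cebpd was called at no day.

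Prdm16 (ENSMUSG00000039410, chr4:153690234-154010982) was detected in PMs. It had 21 to 64 reads in each of the 12 PM libraries and 0 or 1 read in each of the 12 C2C12 libraries. Every PM library thus lay above every C2C12 library. Against the level that 3 reads per library would give in C2C12 cells, siControl PMs were at least 15.6-fold, 13.3-fold and 13.1-fold higher at days 0, 3 and 6, and siTead1/4 PMs at least 9.99-fold, 11.8-fold and 13.3-fold higher. Within siControl PMs it changed by -0.37 (SE 0.44) at day 3 and -0.13 (SE 0.44) at day 6 on the log2 scale, and neither was called. It was higher in replicate 1 than in replicate 2 in 6 of 6 PM groups.

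Fabp4 (ENSMUSG00000062515, chr3:10204347-10208576) was near the limit of detection. C2C12 libraries had 0 to 15 reads. In PMs replicate 1 had 11 to 77 reads (0.356 to 1.65 CPM) and replicate 2 had 1 to 15 reads (0.0253 to 0.374 CPM). Fabp4 was higher in replicate 1 in 6 of 6 PM groups. Fabp4 is also made by endothelial cells, and 8 endothelial markers summed to 5.66 to 17.6 CPM in replicate 1 and 3.21 to 5.53 CPM in replicate 2 of the PMs. Pecam1, Cdh5, Kdr, Emcn and Esam were higher in replicate 1 in 6 of 6 groups, Tie1 in 5, Cldn5 in 4 and Tek in 3. In C2C12 libraries the sum was 0.256 to 1.53 CPM. The part of these markers in the Fabp4 values was not tested. Cebpa was lower in replicate 1 in 6 of 6 PM groups. Replicate 1 was higher in 4 groups for Lpl, 3 for Cebpb, 2 for Pparg, Cd36 and Adipoq, and 1 for Cebpd. How many of all genes differ in the same direction in every group was not counted.

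**Figure D3:**
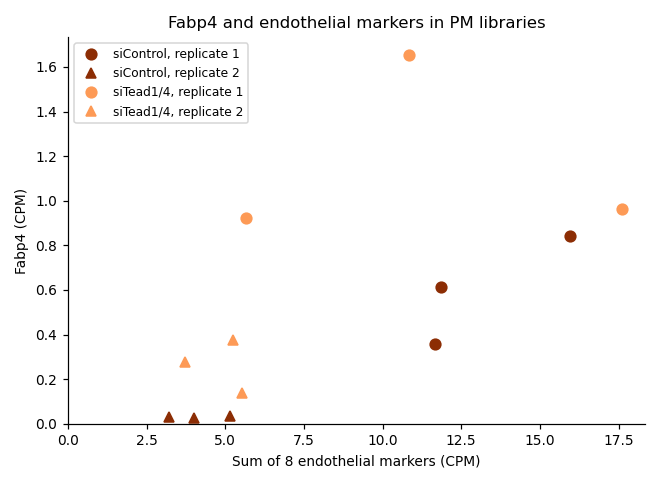
Fabp4 (CPM) against the sum of 8 endothelial markers (CPM) in the 12 PM libraries, with circles for replicate 1, triangles for replicate 2 and colours for the siRNA. All replicate 1 libraries lie at 5.66 CPM or more on the horizontal axis and all replicate 2 libraries at 5.53 CPM or less, and within each replicate the siTead1/4 libraries reach higher on the vertical axis.

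Adipoq (ENSMUSG00000022878, chr16:23146609-23158101) had 17 reads in all 24 libraries together, with 0 to 3 in any library, and did not pass the filter on low counts. At this depth 3 reads correspond to 0.0533 to 0.110 CPM.

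Per kilobase of the gene length in the table, the order of the mean levels changed with day. In siControl C2C12 cells at day 0 Cebpb (20.9 CPM per kb) and Pparg (19.0) were above Cebpa (3.08), Cebpd (2.98) and Lpl (1.94), and the replicates of Cebpb and Pparg overlapped, as did those of Cebpa and Cebpd. At day 6 Cd36 (27.5) led, followed by Cebpb (20.6), Cebpd (12.1), Cebpa (7.89), Lpl (3.66) and Pparg (2.71). In siControl PMs Lpl (11.7) and Cebpb (8.21) led at day 0, and Cebpb (22.8), Cd36 (17.6), Lpl (9.94) and Cebpd (9.45) at day 6. The replicates of Lpl and Cebpd overlapped there, as did those of Lpl and Pparg in C2C12 cells at day 6. For Lpl the annotated exons cover 6810 bases against a length of 4732 in the table, so its value per kb would be lower with the former.

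The siTead1/4 comparisons called 1 member at 1 day. In C2C12 cells 0 of 7 members were called at day 0, 1 at day 3 and 0 at day 6, where 0.438%, 1.27% and 0.0457% of all genes were called. In PMs 0 of 8 were called at any day, against 2.60%, 3.30% and 0.743% of all genes. At an unadjusted edgeR p under 0.05 there were 7 member and day pairs in C2C12 cells and 7 in PMs over the 3 days. Among all genes tested in C2C12 cells, 1603, 2180 and 1064 of 15303 were under it at days 0, 3 and 6. In PMs these were 3756, 3668 and 1914 of 16144. DESeq2 called 1 member and day pair in C2C12 cells and 2 in PMs.

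Cd36 was the called member. In C2C12 cells at day 3 siTead1/4 libraries were at 22.9 and 36.1 CPM against 77.8 and 106 CPM in siControl libraries, with no overlap. The log2 fold change was -1.67 (SE 0.27, edgeR adjusted p = 0.023). The call was lost without siControl replicate 1 (-1.89), siControl replicate 2 (-1.42) or siTead1/4 replicate 2 (-2.02). In the same libraries the 8 myogenic markers summed to 5992 and 7875 CPM against 15203 and 17678 CPM, with 1 of 8 called lower. The fibro-adipogenic progenitor markers summed to 137 and 89.6 CPM against 454 and 222 CPM, with a median log2 fold change of -2.06 over 7 tested and 0 called. The part of these markers in the Cd36 value was not tested. At day 6 siTead1/4 C2C12 cells were at 58.3 and 53.2 CPM against 113 and 103 CPM, again below both siControl libraries (log2 fold change -0.95, SE 0.26, edgeR adjusted p = 0.33).
In PMs Cd36 was at 24.3 and 32.8 CPM in siTead1/4 cells against 66.9 and 71.6 CPM at day 6, a log2 fold change of -1.28 (SE 0.31) with edgeR adjusted p = 0.084. Its day 3 levels were 15.3 and 17.3 CPM against 19.4 and 39.5 CPM (log2 fold change -0.86, SE 0.31, edgeR adjusted p = 0.12), and the change was called without siControl replicate 1 (-1.28) and was -0.26 without siControl replicate 2. The day 6 value was called by DESeq2 (-1.28) and without the filter on low counts (-1.26). At day 6 the fibro-adipogenic progenitor markers of PMs had a median log2 fold change of -0.95, with 2 of 7 called lower, and sums of 227 and 228 CPM against 246 and 214 CPM. The myogenic markers summed to 25123 and 25502 CPM against 26796 and 30760 CPM. The 8 endothelial markers had a median log2 fold change of -0.85, with 0 called. They summed to 5.66 and 3.72 CPM against 11.7 and 5.15 CPM. The part of these marker sets in the Cd36 values was not tested. At day 0 the log2 fold changes were -0.11 (SE 0.48) in C2C12 cells and 0.44 (SE 0.32) in PMs.

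Cebpa had higher means in siTead1/4 cells in all 6 comparisons and was called in none. The means of Cebpd, Lpl and Fabp4 were also higher in all 6. How many of all genes had higher means in all 6 was not counted. For Cebpa in C2C12 cells the libraries were at 16.4 and 11.7 CPM against 8.87 and 7.34 CPM at day 0. At day 6 they were at 40.5 and 35.3 CPM against 22.2 and 19.3 CPM. At day 3 they were at 37.6 and 17.4 CPM against 18.0 and 18.5 CPM, and overlapped, and without siTead1/4 replicate 1 the log2 fold change was -0.08. The log2 fold changes at days 0, 3 and 6 were 0.79 (SE 0.33), 0.57 (SE 0.33) and 0.87 (SE 0.33; edgeR adjusted p = 0.43, 0.49 and 0.59).
In PMs they were at 18.2 and 19.3 CPM against 9.24 and 10.3 CPM at day 0 and 7.59 and 10.4 CPM against 2.92 and 5.61 CPM at day 3. Both comparisons were without overlap, with log2 fold changes of 0.93 (SE 0.31, edgeR adjusted p = 0.10) and 1.06 (SE 0.33, edgeR adjusted p = 0.080). The second was called by DESeq2, without the filter on low counts and without siControl replicate 2 (1.61), and was 0.67 without siControl replicate 1. At day 6 the value was 0.26 (SE 0.32), and -0.08 without siControl replicate 1.

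Cebpb in C2C12 cells lay above both siControl libraries in both siTead1/4 libraries at each day. On day 3 the levels were 37.3 and 66.8 CPM against 27.8 and 28.8 CPM, a log2 fold change of 0.85 (SE 0.25, edgeR adjusted p = 0.14) that became 1.22 and was called without siTead1/4 replicate 1, and became 0.39 without siTead1/4 replicate 2. In PMs at day 0 it was at 20.8 and 18.4 CPM against 13.1 and 11.6 CPM, with an adjusted p under the threshold but a log2 fold change of 0.66 (SE 0.14, edgeR adjusted p = 0.019) short of 1. It was at -0.17 (SE 0.14) and -0.05 (SE 0.14) at days 3 and 6 in PMs.
Lpl in C2C12 cells at day 6 was at 60.5 and 31.7 CPM against 15.4 and 19.2 CPM, a log2 fold change of 1.42 (SE 0.50, edgeR adjusted p = 0.54). It was called without the filter on low counts (1.41) and was 0.88 without siTead1/4 replicate 1. The other Lpl values lay between 0.13 and 0.91. Pparg lay between -0.18 and 0.34 over the 6 comparisons, Cebpd between 0.15 and 0.55, and Prdm16 in PMs between -0.28 and 0.01.
Fabp4 in siTead1/4 C2C12 cells had 8 and 15 reads against 5 and 2 at day 0, 10 and 4 reads against 2 and 1 at day 3, and 10 and 0 reads against 1 and 3 at day 6. In PMs it had 41 and 7 reads against 29 and 1, 77 and 15 against 30 and 1, and 32 and 9 against 11 and 1. Within each replicate number the siTead1/4 library of PMs had the higher count at each day, but the replicates overlapped between the siRNAs and no value was called.

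For comparison, both siTead1/4 libraries lay above both siControl libraries for 18.7%, 22.9% and 18.6% of all genes tested in C2C12 cells at days 0, 3 and 6, and below them for 17.7%, 23.6% and 21.0%. In PMs they lay above for 28.3%, 27.4% and 18.4% of genes and below for 29.8%, 25.0% and 18.2%. The share of genes that lay above, or below, at every day was not counted. The replicates of siTead1/4 C2C12 cells differed most of all groups, with an SD of the log2 difference over genes of 0.63 to 0.74, against 0.42 to 0.57 in the other groups.

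**Figure D4:**
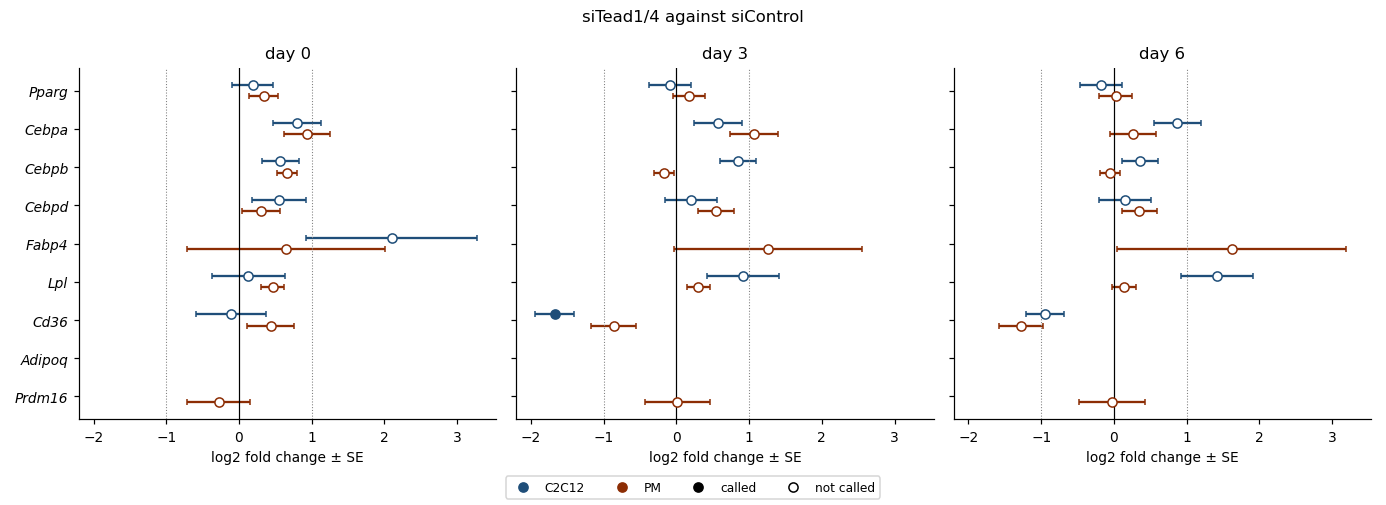
Log2 fold change with its SE of each member in siTead1/4 against siControl cells at days 0, 3 and 6, in C2C12 cells (blue) and PMs (brown). Filled points were called, dotted lines mark 1 and -1, and members with a group of at most 3 reads per library are left out. Cd36 at day 3 in C2C12 cells is the only filled point, and Cd36 lies left of 0 in both cell types at days 3 and 6.

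The difference of the siTead1/4 effect between PMs and C2C12 cells was called for 0 of 8 members at each day, where 0.00591%, 1.25% and 0.0354% of all genes were called. The 8 include Prdm16, which had at most 3 reads in every C2C12 library, so no difference can be read for it. At an unadjusted edgeR p under 0.05 there were 2 member and day pairs. Among all genes tested, 725, 2205 and 916 of 16926 were under it at days 0, 3 and 6. DESeq2 called 1 member and day pair. For Cd36 this difference was 0.57 (SE 0.71), 0.79 (SE 0.43) and -0.32 (SE 0.43) at days 0, 3 and 6. For Cebpb it was -1.04 (SE 0.29, edgeR adjusted p = 0.10) at day 3, which DESeq2 called (-1.01). In edgeR it was called without siTead1/4 C2C12 replicate 1 (-1.41) and was -0.55 without siTead1/4 C2C12 replicate 2.

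The wider adipogenesis lists held 88 other genes. In siTead1/4 C2C12 cells 72 were tested and 1, 0 and 0 were called at days 0, 3 and 6, beside 0.438%, 1.27% and 0.0457% of all genes. In siTead1/4 PMs 78 were tested and 6, 5 and 1 were called (7.69%, 6.41% and 1.28%), beside 2.60%, 3.30% and 0.743% of all genes. These were 10 genes, with 7 calls up and 5 down. The median log2 fold change of those tested lay between -0.11 and 0.10 in C2C12 cells and between -0.08 and 0.07 in PMs, beside medians of all genes between 0.01 and 0.02 and between -0.01 and 0.01. Foxo1 and Fabp3 were called at 2 days, both in PMs. Foxo1, a forkhead factor that restrains adipogenesis, was at 62.5 and 71.6 CPM in siTead1/4 PMs against 27.2 and 34.4 CPM at day 0, and at 82.8 and 103 CPM against 30.2 and 51.5 CPM at day 3. The log2 fold changes were 1.11 (SE 0.24, edgeR adjusted p = 0.020) and 1.17 (SE 0.24, edgeR adjusted p = 0.015). Fabp3, the fatty acid carrier of heart and muscle, fell, from 14.3 and 11.8 CPM to 5.03 and 3.63 CPM at day 0 and from 151 and 102 CPM to 70.3 and 53.9 CPM at day 3. It changed by -1.61 (SE 0.27, edgeR adjusted p = 0.0076) and -1.03 (SE 0.25, edgeR adjusted p = 0.031) on the log2 scale. At day 6 in PMs Foxo1 was at 0.85 and Fabp3 at -1.05, and neither was called. In C2C12 cells at days 0, 3 and 6 Fabp3 was at 0.82, -1.56 and -1.14 and Foxo1 at 0.49, 0.13 and 0.47, with none called. The difference of the siTead1/4 effect between cell types was called for neither gene at any day.
During differentiation of siControl C2C12 cells 19 of the 72 rose and 6 fell at day 3, and 20 rose and 9 fell at day 6. That is 34.7% and 40.3% called, beside 28.7% and 31.1% of all genes. In siControl PMs 32 of the 78 rose and 13 fell at day 3, and 30 rose and 13 fell at day 6, which is 57.7% and 55.1% beside 32.3% and 35.5% of all genes. Whether the lists differ from other genes was not tested. Of 17 genes of fatty acid uptake and use, 9 of 16 tested rose and 1 fell in PMs at day 3 and 7 rose and 1 fell at day 6. In C2C12 cells 1 of 15 rose and 1 fell, then 2 rose and 0 fell, a share below that of all genes. Of 18 other adipogenic regulators 8 rose and 3 fell in PMs at day 3 and 8 and 2 at day 6, and among 17 tested in C2C12 cells 5 rose and 2 fell, then 6 and 1. Of 14 inhibitors of adipogenesis 2 rose and 4 fell in PMs at day 3 and 4 and 4 at day 6, and among 13 in C2C12 cells 3 rose and 2 fell, then 2 and 4. Of 24 genes of adipocyte lipid handling and hormones 9 of 18 tested rose and 2 fell in PMs at day 3 and 8 and 2 at day 6, and of 17 in C2C12 cells 6 rose and 1 fell, then 6 and 3. Of 16 brown fat genes 5 of 13 tested rose and 3 fell in PMs at day 3 and 4 and 4 at day 6, and of 10 in C2C12 cells 4 rose and 0 fell, then 4 and 1.

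Over the 24 libraries and 12792 other genes with a mean of at least 1 CPM, the pattern of log2 CPM most like that of Pparg was that of 5730494M16Rik (Pearson r = 0.98), then Ppap2c and Plp2 (both 0.97). For Cebpa these were Has2as (0.91), Ttc15 (0.87) and Bcl2 (0.86). For Cebpb they were March9 (0.90), Abhd5 and Pcgf5 (both 0.89). For Cebpd they were Pou2af1, Rftn2 and Laptm4a (each 0.94). For Lpl they were Frmd3 (0.93), Spats2l and Col19a1 (both 0.91), and for Cd36 Myoz2 (0.98), Dnalc1 (0.97) and Dclk1 (0.96). Fabp4 had no pattern as close, with Pvrl3 (0.67), Myh11 and Sarm1 (both 0.66) leading. The libraries share cell type and day, and these correlations are descriptions.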

How the data were processed

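Total RNA was sequenced as polyadenylated mRNA with a kit that does not mark the strand. Per the submitters' processing notes the tools were CASAVA 1.8.2, TopHat2 2.0.10, Bowtie2 2.1.0, HTSeq 0.6.1 and DESeq2 1.8.1, with mm9 as the genome. The authors deposited raw read counts per gene, with gene length, start and end; values they normalized were not used. The table also held 36 columns for libraries outside the sample list, and none of these was used.

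Counts were tested with edgeR 4.0.16 in R 4.3.3 (filterByExpr, TMM, glmQLFit and glmQLFTest), with 12 libraries and 6 groups per cell type, or all 24 libraries for comparisons between cell types. This left 15303 genes in C2C12 cells, 16144 in PMs and 16926 over both. Levels are CPM with TMM factors over 24 libraries. The code of the fits was also run on simulated counts with the same spread for every gene. That run does not measure power or errors in these data. For a group with at most 3 counts in each library, no fold change was given beyond a lower bound. Such groups stayed in the tests and in the counts of members tested and called, as Prdm16 did in comparisons between cell types. DESeq2 1.42.0 (Wald test, unshrunken) was an alternative, with others given in the closing section. P-values measure the spread between 2 replicates per group, which the labels call biological, and the bounds from 3 counts cover counting error only.

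The members and the gene lists were chosen with earlier results of these data known. Besides the members, the text names Tead1, Tead4, genes of the wider lists called after silencing at 2 or more days in a cell type, and the 3 genes most correlated with each member tested in both cell types. Lep, Lipe and Slc2a4 were named, and the fit on replicate 2 alone of the PMs was chosen, after seeing the data.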

Additional observations from a re-analysis of the deposited data

Results flagged for a closer look

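The change from day 0 in siControl cells differed between PMs and C2C12 cells for 3 members, by a test of the difference itself (edgeR interaction, PMs minus C2C12 cells, log2 scale). For Cebpa it was -2.36 at day 3 (edgeR adjusted p = 0.0036), where Cebpa rose in C2C12 cells and fell in PMs. For Cebpb it was 1.32 at day 3 and 1.49 at day 6 (edgeR adjusted p = 0.0060 and 0.0022). For Cd36 it was -6.39 at day 3 and -5.39 at day 6 (edgeR adjusted p = 6.6e-07 and 2.6e-06), with 6 and 16 reads in the C2C12 libraries of day 0.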

How the results depend on the processing

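Of 36 called member values, 29 stayed called under every alternative run, and no value that was called in either fit reversed. Both counts include Prdm16 in PMs against C2C12 cells at each day. Without the filter on low counts, member and day pairs called after silencing numbered 2 in C2C12 cells and 2 in PMs in place of 1 and 0. Calls over all genes also rose, at day 6 in C2C12 cells from 2 up and 5 down to 143 and 244. In PMs they rose from 339 up and 193 down to 479 and 325 at day 3. At day 6 in PMs they rose from 75 and 45 to 193 and 142. Without this filter, pairs called for a difference of the differentiation effect between cell types numbered 8 in place of 5. Over all genes these calls rose from 641 up and 1260 down to 779 and 1554 at day 3. At day 6 they rose from 892 and 1258 to 1086 and 1534. DESeq2 gave 2 member and day pairs in PMs after silencing and 1 for the difference of the silencing effect between cell types, in place of 0. Over all genes it called 353 up and 235 down in PMs at day 3, in place of 339 and 193. At day 6 in PMs it called 132 and 92, in place of 75 and 45. For the difference at day 3 it called 354 and 140, in place of 172 and 40. The causes were not tested. Leaving out 1 library at a time gave 0 to 2 members called after silencing in C2C12 cells, 0 to 1 in PMs and 0 to 1 for the difference between cell types. A lone library was then assumed to vary like the other groups. With the replicate number as a block (replicate block), 2 members were called in PMs after silencing, Cebpa at day 3 (1.09) and Cd36 at day 6 (-1.28), and the other counts of calls did not change. The labels do not say what a replicate number shares, and deviations of same-numbered libraries correlated at -0.17 to 0.47 in C2C12 cells and 0.05 to 0.50 in PMs. With replicate 2 alone of the PMs, the differentiation calls of Cebpa and Cebpd at day 3 were lost. Their log2 fold changes were then -0.89 and 1.69, in place of -1.25 and 1.37. Fabp4 had 0 to 77 reads, and its replicates in PMs stood at 29 and 1 reads (siControl, day 0) and 30 and 1 (day 3).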
